A study of Rattus norvegicus with 6 samples.

Results

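Caveolae are small flask-shaped pits of the plasma membrane, and the genes described here encode the proteins that build their coat: the caveolins Cav1 and Cav2, the cavins Cavin1, Cavin2 and Cavin3, and the neck ATPase Ehd2. A probe set was taken when the array annotation paired it with exactly 1 of these 6 symbols. This gave 10 probe sets for 5 of the 6 genes, out of 31042 probe sets other than controls: 3 for Cav1, 4 for Cav2 and 1 each for Cavin2, Cavin3 and Ehd2. Cavin1 was not measured by any probe set chosen in this way. All 10 were bright enough to be tested, together with 21729 probe sets in all.

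Smooth muscle cells from rat aorta, at passage 3 to 5, were grown with 10% serum and synchronised for 24 h with 0.1% albumin instead. In 3 cultures a confluent layer was put under laminar flow at 14 dyn per square centimetre for 24 h (fluid shear stress), and 3 were static controls. Each sheared culture carried the pairing number of 1 static culture, and the series describes the experiment as paired. The labels do not say whether a pair shared an animal, a culture or a day, so the p-values reflect only how much these 6 samples vary, and that variation may be technical. The question was which transcripts differ between sheared and static cells, and any other difference between the flow chamber and the static cultures cannot be told apart from flow. The cells were a primary culture facing flow directly, whereas in an intact artery the endothelium lies between smooth muscle and blood.

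Caveolin-1 inserts into the inner leaflet of the membrane as oligomers rich in cholesterol, and caveolin-2 joins it in mixed oligomers. Cavin-1 trimers then assemble a peripheral coat, into which cavin-2 and cavin-3 are recruited, while EHD2 forms rings at the neck that hold the pit at the surface. Caveolae are abundant in smooth muscle, endothelium and adipocytes, where they flatten when membrane tension rises and hold receptors and signalling enzymes.

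All 10 probe sets fell in sheared cells, and 0 rose (limma, adjusted p from 2.9e-06 to 0.00092). Among all tested probe sets, 28.5% were called as lower under shear. Cavin2 was the most affected: sheared cells kept 8.65% of the static signal. Ehd2 kept 17.4%, Cav2 19.3% on its brightest probe set and Cavin3 35.3%, while Cav1 kept 62.9% on its brightest probe set. The median log2 change over the 10 probe sets was -1.62, against -0.067 over all probe sets tested.

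The sequences around the starts of Cav1, Cav2, Cavin2 and Ehd2 are shown because these genes fell together, and because they include the smallest and the largest falls. They are RefSeq windows of assembly GRCr8, from 250 bases before to 50 bases after the annotated start, printed 5′ to 3′ on the gene's strand. Capitals mark, on either strand, the GC box GGGCGG, the TEAD motif GGAATG and the AP-1 motif TGANTCA. Cav1 lies on the plus strand at chr4:46606288-46606587 and Cav2 on the plus strand at chr4:46582431-46582730. Cavin2 lies on the minus strand at chr9:57805975-57806274 and Ehd2 on the minus strand at chr1:85786894-85787193.
Cav1: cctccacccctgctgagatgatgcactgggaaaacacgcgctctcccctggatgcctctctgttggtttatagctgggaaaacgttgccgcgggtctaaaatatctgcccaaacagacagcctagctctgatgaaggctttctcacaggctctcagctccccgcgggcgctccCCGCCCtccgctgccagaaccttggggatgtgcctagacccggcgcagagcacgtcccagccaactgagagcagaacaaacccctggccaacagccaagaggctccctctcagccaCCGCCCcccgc
Cav2: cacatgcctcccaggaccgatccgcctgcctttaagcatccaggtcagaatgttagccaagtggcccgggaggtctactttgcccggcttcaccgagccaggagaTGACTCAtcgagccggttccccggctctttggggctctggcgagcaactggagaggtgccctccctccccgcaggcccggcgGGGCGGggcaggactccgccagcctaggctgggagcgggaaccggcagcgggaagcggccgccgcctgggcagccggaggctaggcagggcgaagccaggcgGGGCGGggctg
Cavin2: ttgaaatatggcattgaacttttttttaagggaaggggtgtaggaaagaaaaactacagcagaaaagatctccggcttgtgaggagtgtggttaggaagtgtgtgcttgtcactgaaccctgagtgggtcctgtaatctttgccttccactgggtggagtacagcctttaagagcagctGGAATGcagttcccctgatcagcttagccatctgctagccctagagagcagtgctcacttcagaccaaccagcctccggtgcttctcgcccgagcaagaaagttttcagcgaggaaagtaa
Ehd2: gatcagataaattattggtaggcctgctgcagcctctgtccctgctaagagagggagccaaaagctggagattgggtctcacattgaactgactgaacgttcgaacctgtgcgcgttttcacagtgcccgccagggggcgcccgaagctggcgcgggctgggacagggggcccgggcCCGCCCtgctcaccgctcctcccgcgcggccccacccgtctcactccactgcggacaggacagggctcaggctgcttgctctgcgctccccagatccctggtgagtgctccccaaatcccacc

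The table of starts held 6 windows for 5 of the 6 genes (2 of them for Cav1, 1 for Cavin1) and no window for Cavin3. The second Cav1 window, not printed, held 0 of these motifs. A GC box was found in 4 of the 6 windows, those of Cav1 (1 of its 2), Cav2, Cavin1 and Ehd2, and in 33.1% of all 33469 windows in the table. Cav2 held 2 of them, at bases 188 to 193 and 290 to 295 of its window, and an AP-1 motif at bases 106 to 112. The AP-1 motif occurred in 7.33% of all windows. The TEAD motif occurred in 14.2% of windows and, among the coat genes with a window, in that of Cavin2 alone, at bases 180 to 185. A CArG box, the binding motif of serum response factor, was in 0 of the 6 windows and in 1.64% of all. The marked motifs did not overlap each other. Cavin2, the gene with the largest fall, also had the window lowest in G and C (48.7%, with 5 CpG sites), against 61.7% to 70.3% and 15 to 24 sites in the other windows and a median of 51.7% and 7 sites over all. These matches describe the letters in the windows and were not tested against the expression values. Cav1 and Cav2 are neighbours, with 0 annotated genes between them.

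Caveolin-1 is the scaffold without which cells other than striated muscle form no caveolae. Its brightest probe set (1372111_at) read 2681.5, 2901.6 and 2894.9 in the static cultures of pairs 1 to 3 and 1615.1, 1757.0 and 1959.5 in their sheared partners. Every sheared array lay below every static one. The signal went from 2826 ± 125 to 1777 ± 173 (SD, n = 3), a log2 change of -0.67 (95% interval -0.81 to -0.53, adjusted p = 7.4e-05).

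The other two Cav1 probe sets fell further. Probe set 1393281_at read 1673.2, 1977.7 and 1958.4 in static cells and 814.3, 934.3 and 1056.6 in sheared cells, a log2 change of -0.99 (95% interval -1.15 to -0.83). Probe set 1370131_at read 1193.9, 1664.7 and 1516.7 against 484.8, 776.4 and 680.9, a log2 change of -1.17 (95% interval -1.34 to -0.99). The interval of the brightest probe set did not overlap either of the others, so the size of the Cav1 fall depended on the probe set, from 1.59-fold to 2.25-fold on the linear scale. In all 3, the arrays of pair 1 were the lowest of their group, in static and in sheared cells alike. All 3 signals were far above the array medians in sheared cells too.

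Caveolin-2 needs caveolin-1 to leave the Golgi and supports the coat without being essential to it. Its brightest probe set (1377642_at) read 398.7, 472.5 and 454.2 in the static cultures of pairs 1 to 3, against 67.0, 99.4 and 89.0 in the sheared ones, with a wide gap between the groups. The signal went from 442 ± 38.4 to 85.1 ± 16.5 (SD, n = 3), a log2 change of -2.19 (95% interval -2.43 to -1.95, adjusted p = 4.6e-06). Probe set 1390800_a_at, annotated with the same transcript record, gave 374.6, 396.3 and 398.3 against 51.3, 56.4 and 61.8, a log2 change of -2.49 (95% interval -2.73 to -2.25). These 2 probe sets share their source, so they are not independent readings of the gene.

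The remaining Cav2 probe sets were dim. Probe set 1370135_at read 100.0, 104.9 and 152.0 in static cells and 18.9, 26.4 and 24.7 in sheared cells, a log2 change of -1.76 (95% interval -2.08 to -1.45). Its sheared values were close to the median of all probe sets in those arrays, 17.3 to 18.9. Probe set 1386261_x_at, whose suffix marks probes that may also bind other transcripts, read 78.1, 97.5 and 89.5 against 45.7, 35.5 and 27.2, the smallest Cav2 fall (-1.01, 95% interval -1.37 to -0.66, adjusted p = 0.00092). The groups stayed apart on both, and their folds moved with the pseudocount: at 64 they were -1.06 and -0.61, and at 1 they were -2.29 and -1.29.

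**Figure D1:**
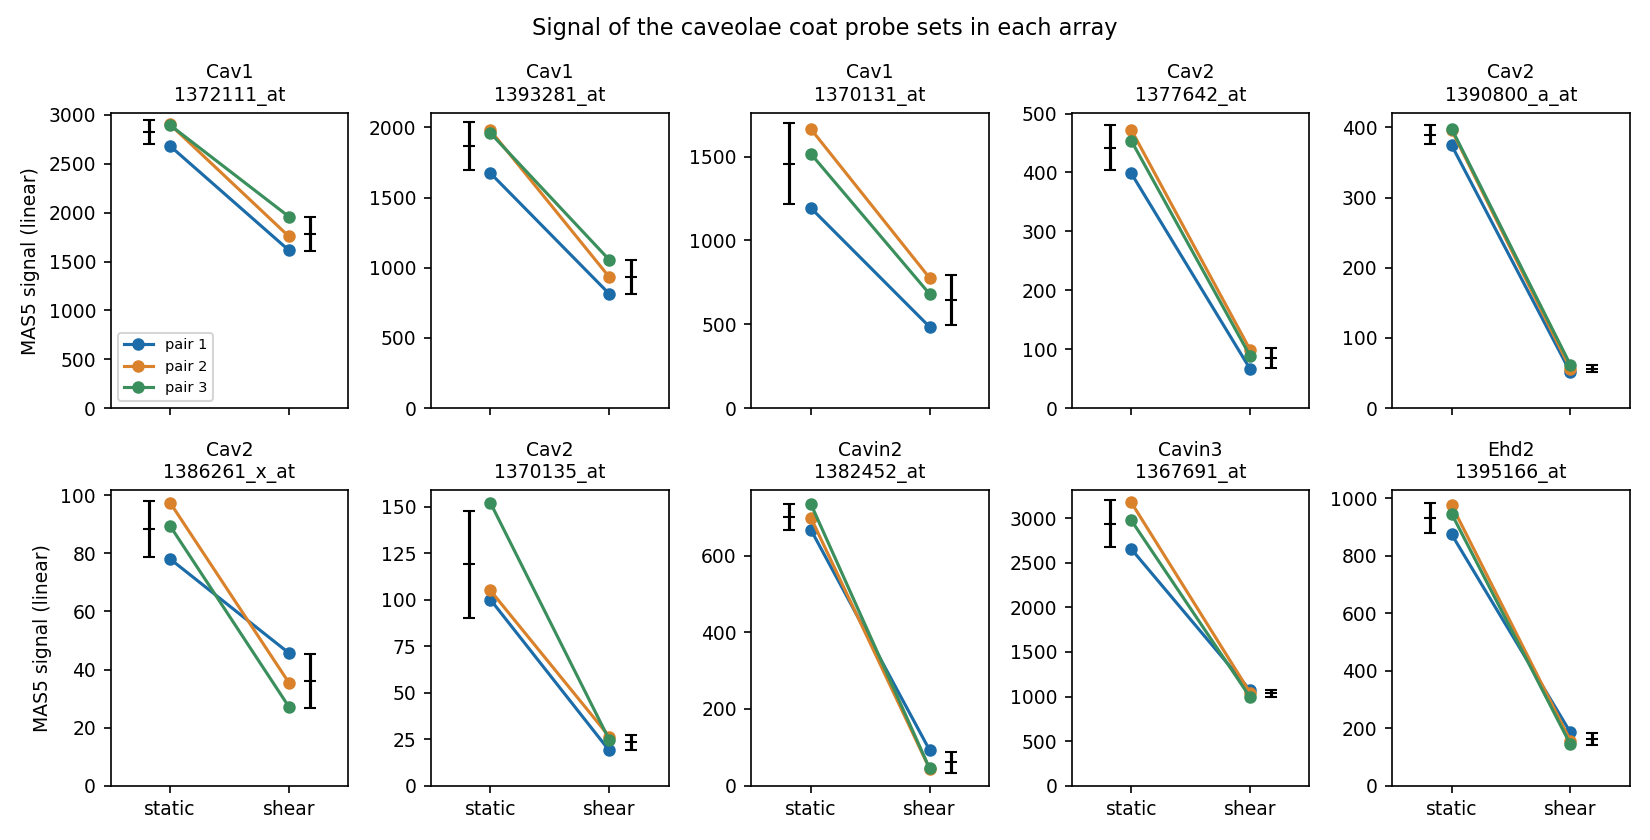
Linear MAS5 signal of the 10 caveolae coat probe sets in the 6 arrays, with lines joining the static and the sheared culture of a pair and black bars giving the group mean ± SD (n = 3). Each vertical axis starts at 0 and has its own range. In every panel all 3 sheared arrays lie below all 3 static arrays, from the shallow slope of Cav1 1372111_at (2826 to 1777) to the steep one of Cavin2 (701 to 60.6).

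Cavin-2, formerly serum deprivation response protein, binds phosphatidylserine and bends caveolar membrane into tubules when abundant. Its signal was 667.8, 699.0 and 734.8 in the static cultures of pairs 1 to 3 but 92.7, 44.0 and 45.0 in the sheared ones. Static cultures were close to each other, whereas shear array 1 kept a clearly higher signal than shear arrays 2 and 3. The means were 701 ± 33.5 and 60.6 ± 27.8 (SD, n = 3), a ratio of 11.6. The log2 change was -3.28 (95% interval -3.72 to -2.85, adjusted p = 9.0e-06). Pair 1 gave -2.65, while pairs 2 and 3 gave -3.58 and -3.62. Only 47 of the 21729 tested probe sets (0.216%) fell by more.

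Cavin-3, a binding protein of protein kinase C delta, is linked to the trafficking of caveolae off the surface. Its signal was 2655.6, 3178.7 and 2977.9 in static cells and 1071.8, 1045.0 and 994.0 in sheared cells. The sheared cultures were tightly grouped (1037 ± 39.5, against 2937 ± 264 in static cells, SD, n = 3). The log2 change was -1.49 (95% interval -1.66 to -1.31, adjusted p = 5.9e-06). Pairs 1 to 3 gave -1.30, -1.59 and -1.57.

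EHD2 is the ATPase that restrains caveolae at the cell surface. Its signal was 874.5, 976.4 and 946.3 in static arrays and 185.5, 156.3 and 143.6 in sheared arrays, again without overlap. The means were 932 ± 52.4 and 162 ± 21.5 (SD, n = 3), a ratio of 5.76. The log2 change was -2.42 (95% interval -2.68 to -2.16, adjusted p = 4.2e-06). Pairs 1 to 3 gave -2.14, -2.53 and -2.59, and 0.957% of tested probe sets fell by more.

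Across the 10 probe sets all 30 differences within pairs were below 0. All 10 had every sheared array below every static array, which was so for 32.9% of tested probe sets. On 8 of the 10 the fall was at least 2-fold, against 8.95% of all tested probe sets. The median log2 difference was -1.51 in pair 1, -1.55 in pair 2 and -1.81 in pair 3. Pair 1 did not deviate in 1 direction: it had the smallest fall of the 3 pairs for Cavin2, Cavin3 and Ehd2, and the largest for the brightest Cav1 and Cav2 probe sets. Because RNA came from whole cultures, less transcript per cell and fewer cells with the transcript cannot be told apart.

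**Figure D2:**
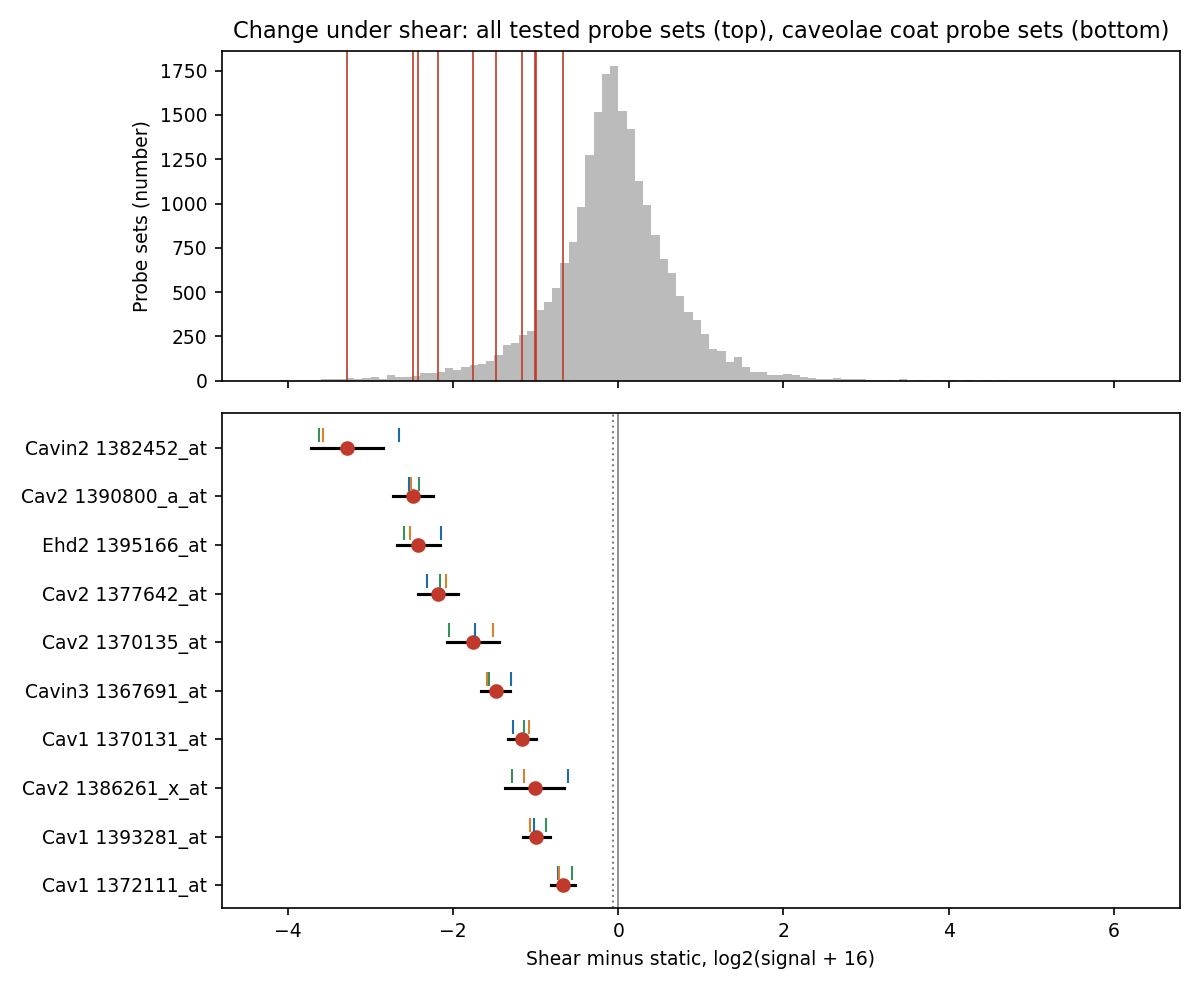
Upper panel: number of the 21729 tested probe sets at each log2 change (shear minus static, log2(signal + 16)), with red lines at the 10 caveolae coat probe sets. Lower panel: each of the 10 with its fitted change (red), 95% interval (black) and the values of pair 1 (blue), 2 (orange) and 3 (green), the solid grey line at 0 and the dotted one at the median of all probe sets (-0.067). All 10 lie left of both lines, from -3.28 for Cavin2 to -0.67 for Cav1 1372111_at.

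By brightest probe sets, the measured falls of the coat genes differed in size. For genes with 1 probe set, a difference between genes cannot be told apart from a difference between probe sets. The log2 ratio of 2 genes within an array, each by its brightest probe set, was compared between sheared and static arrays for the 10 gene pairs, where an array's scaling factor largely cancels. The exact permutation test moved arrays between the groups without keeping pairs together. With 3 arrays against 3, its smallest two-sided p is 0.1, so no gene pair could reach 0.05. Relative to Cav1, Cavin2 fell by a further 2.62 ± 0.605 log2 units (SD over 3 pairs), Ehd2 by a further 1.75 ± 0.311, Cav2 by 1.52 ± 0.136 and Cavin3 by 0.82 ± 0.224. Each of these differences had the same sign in 3 of 3 pairs and no overlap between sheared and static arrays (exact permutation p = 0.1, adjusted over the 10 gene pairs 0.11). The brightest Cav1 probe set is the one with the smallest fall. Against Cav1 1370131_at the further falls were 2.12 ± 0.639 for Cavin2, 1.26 ± 0.333 for Ehd2, 1.02 ± 0.026 for Cav2 and 0.32 ± 0.259 for Cavin3.

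Cavin2 also fell by more than Cavin3, by 1.80 ± 0.384, and by more than Ehd2, by 0.86 ± 0.306, in 3 of 3 pairs (exact permutation p = 0.1 each). Cav2 and Ehd2 were the gene pair whose difference did not exceed its spread: Ehd2 fell by 0.23 ± 0.354 more, with the opposite sign in pair 1 (-0.18) and overlapping arrays (exact permutation p = 0.4). By size and by brightest probe sets, the order from the largest fall to the smallest was Cavin2, then Ehd2 and Cav2 together, then Cavin3, then Cav1. The place of Cav2 rests on the probe set: the dim Cav2 1386261_x_at (-1.01) fell by less than Ehd2, Cavin3 and Cav1 1370131_at (-1.17). The signs of the 10 differences were the same with pseudocounts of 1 and 64, after quantile normalization and with each pair left out. Their sizes moved: with a pseudocount of 64 the log2 difference was -0.50 in place of -0.86 for Cavin2 minus Ehd2, -1.20 in place of -1.80 for Cavin2 minus Cavin3, and -0.32 in place of -0.70 for Cav2 minus Cavin3.

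**Figure D3:**
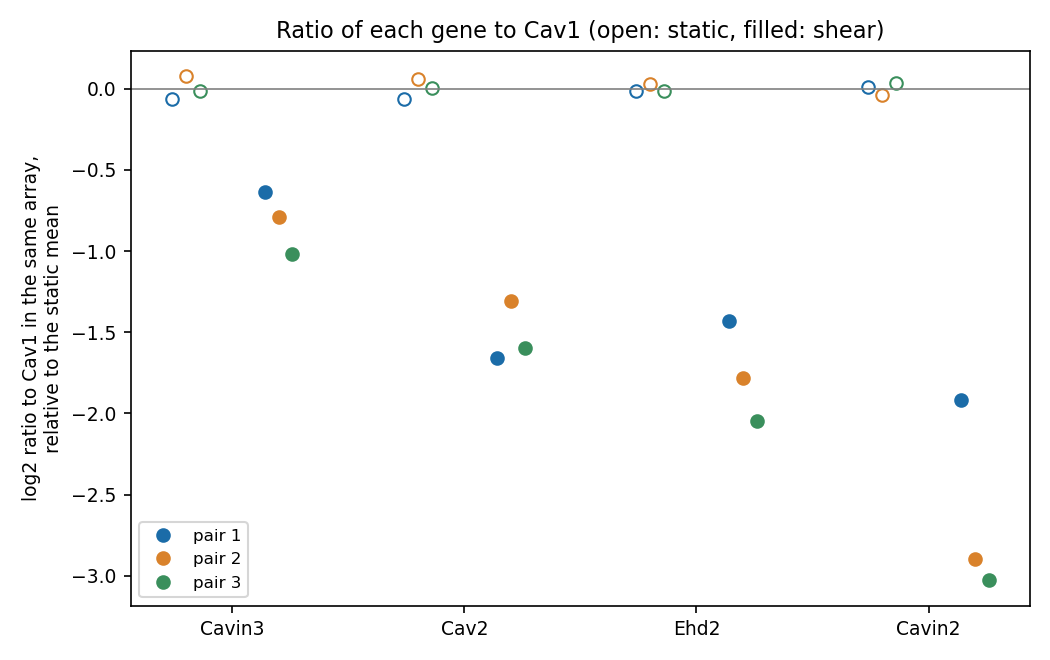
Log2 ratio of Cavin3, Cav2, Ehd2 and Cavin2 to Cav1 within the same array, on the log2(signal + 16) scale and relative to the mean of the 3 static arrays (open circles static, filled circles shear, coloured by pair). Static values cluster at 0, while sheared values lie below them for each gene, lowest for Cavin2, with the pair 1 value of Cavin2 about 1 unit above those of pairs 2 and 3 (1.93 against 2.86 and 3.06 units below static in the same pair).

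Transcripts of proteins that act beside the coat moved in both directions. Of 11 partner genes 9 had a probe set and 8 were tested, of which 3 fell, 2 rose and 3 did not pass, with a median of -0.21. By gene, 30.1% of all 11248 tested fell and 27.8% rose, and the counts of the partners were near these shares. Within the EHD family the directions differed: Ehd1, an endosomal recycling ATPase, fell from 175 ± 3.85 to 71.8 ± 5.05 (-1.12, adjusted p = 8.5e-05), although its second probe set did not pass (-0.19). Ehd4 rose from 312 ± 25.2 to 445 ± 14.8 (0.49, adjusted p = 0.0030), on 2 of its 3 probe sets, and Ehd3 was at -0.44 (adjusted p = 0.13), but passed as fallen without pair 2 (-0.79, adjusted p = 0.0073). Cav3, the muscle caveolin, fell at a low signal, from 36.6 ± 2.27 to 13.5 ± 5.74 (-0.85, adjusted p = 0.0014).

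Neither of the PACSINs that could be tested, F-BAR proteins that shape the caveolar neck, fell. Pacsin3 rose from 71.9 ± 16.2 to 114 ± 14.7 (0.58, adjusted p = 0.0067), a call lost without pair 3 (0.43, adjusted p = 0.074), and Pacsin2 was at 0.20 (adjusted p = 0.093), which passed after median centring (0.35). Pacsin1 was below the filter, with mean signals of 1.63 and 1.90. Dynamin Dnm2, which pinches off vesicles, was at -0.05 (adjusted p = 0.76). Filamin Flna, which ties caveolae to actin, fell by 0.38 on the log2 scale (adjusted p = 0.016), but did not pass after median centring, without the filter or the intensity trend, or when pair 2 or pair 3 was left out (adjusted p from 0.053 to 0.084). No probe set was named for Cavin4 or Ror1.

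Of 13 tested genes of the clathrin coat and the flotillins, which form other membrane domains, 8 fell, 2 rose and 3 did not pass, with a median of -0.76. These counts rest on brightest probe sets. Eps15 did not pass by its brightest (0.085), but 2 of its 3 probe sets fell (lowest -1.40). Cltb fell by its brightest (-0.83), but its second probe set did not pass (-0.07). Over all genes 30.1% fell and 27.8% rose, with a median of -0.053. Flot1 went from 457 ± 127 to 108 ± 15.0 (-1.90, adjusted p = 0.00012) and its partner Flot2 from 238 ± 11.3 to 91.0 ± 20.1 (-1.26, adjusted p = 9.8e-05). The clathrin adaptor subunit Ap2a2 fell by 0.76, and the clathrin heavy chain Cltc and the membrane-bending adaptor Fcho2 rose, by 0.36 and 0.88. These falls overlapped in size with those of the coat. By brightest probe sets, both flotillins and all 4 AP-2 subunits measured fell by less than Cav2, Cavin2 and Ehd2, but by more than Cav1. Flot1 also fell by more than Cavin3. The order against Cav1 depended on the probe set. Cav1 1393281_at (-0.99) and 1370131_at (-1.17) fell by more than all 4 AP-2 subunits (-0.97 to -0.72), but by less than both flotillins. The second Ap2b1 probe set (-0.60) fell by less than any Cav1 probe set.

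Genes for signalling proteins reported in caveolae had 4 risen, 3 fallen and 6 not passing of 13 tested (median -0.03). Of all tested genes 27.8% rose and 30.1% fell. The receptor Pdgfrb fell from 391 ± 78.5 to 35.5 ± 18.7 (-3.02). The kinases Fyn (1.22) and Src (0.98) and the TGF-beta receptor Tgfbr1 (0.86) rose. Nos3, the enzyme that caveolin-1 is best known for binding in endothelium, was at the floor with signals of 0.90 and 1.13. Genes that handle cholesterol and phosphatidylserine, both lipids of the caveolar membrane, had 4 fallen, 3 risen and 2 not passing of 9. The shares over all genes were again 30.1% fallen and 27.8% risen. Insig1 (-0.77) and Srebf2 (-0.78), regulators of sterol synthesis, fell, whereas Soat1 (1.16), which esterifies cholesterol, and the lysosomal carrier Npc2 (0.55) rose.

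Of 7 transcription regulators tested, 2 rose, 1 fell and 4 did not pass, where 27.8% of all tested genes rose and 30.1% fell. Yap1 and Mrtfb had no probe set. Tead1, the DNA-binding partner of YAP and TAZ, fell from 984 ± 68.4 to 348 ± 77.8 (-1.48, adjusted p = 2.3e-05). Wwtr1, which encodes TAZ, rose by 0.75 and Foxo1 by 1.68. Srf (0.19, adjusted p = 0.20), Mrtfa (0.29, adjusted p = 0.062) and Myocd (-0.17, adjusted p = 0.27) did not pass, though Srf and Mrtfa passed as higher after median centring or without pair 1 (4 risen genes in each). Without the replicate block Mrtfa passed too (adjusted p = 0.036).

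**Figure D4:**
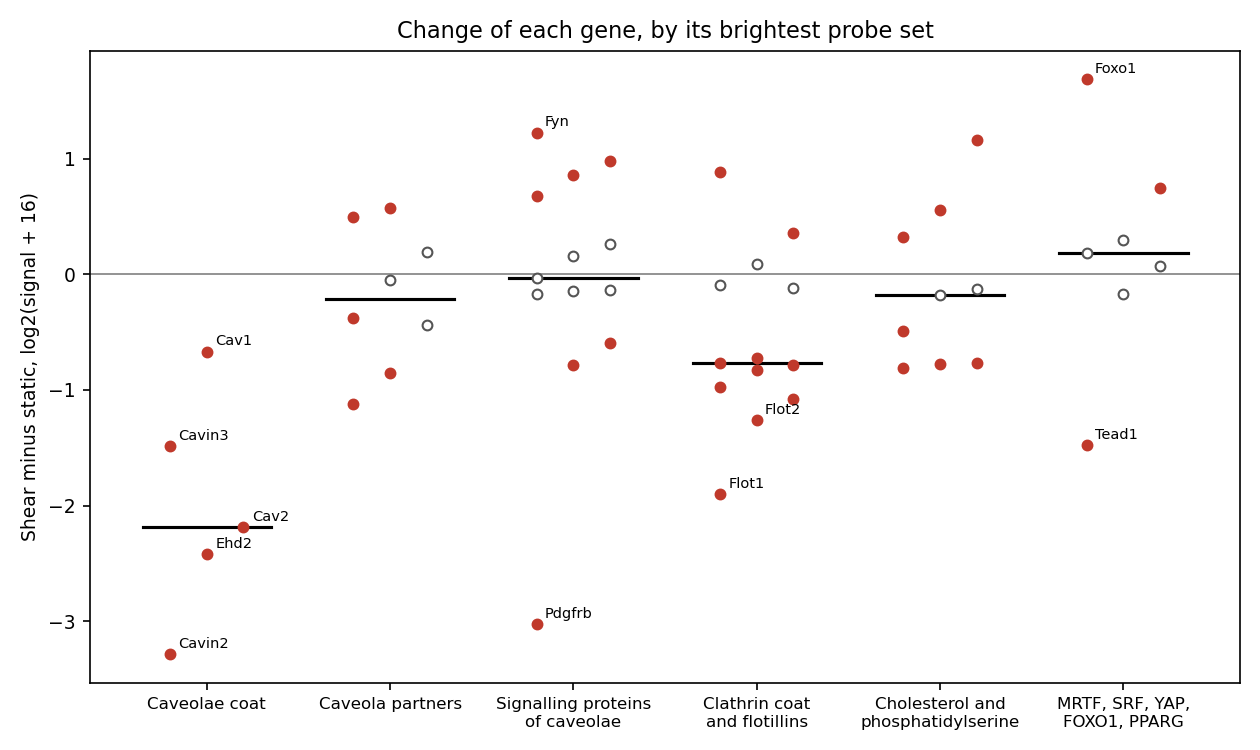
Log2 change (shear minus static, log2(signal + 16)) of each tested gene by its brightest probe set, in the caveolae coat and 5 related lists. Filled circles passed the threshold, open circles did not, bars are medians, and names are given for the coat and for changes beyond 1.2 units. The 5 coat genes lie between -3.28 and -0.67 with a median of -2.19, while each of the other lists holds both risen and fallen genes.

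The genes with profiles closest to that of the brightest Cav1 probe set, 1372111_at, were sought among 11243 other genes. The measure was the root mean square distance over the 6 arrays on the log2(signal + 16) scale, after centring each profile on its own mean. The closest genes were Ap1s2 (distance 0.046, change -0.59), Pigx (0.049, change -0.59) and Brms1l (0.049, change -0.65). No coat gene could be among them, as coat genes were left out. The same search for Cavin1 could not be made, and the other Cav1 probe sets, which fell further, were not searched.

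The smooth muscle label was checked against 8 markers, of which Acta2 (1811 in static and 836 in sheared cells) and Tagln (2684 and 2815) were bright. Cnn1 (329 and 181), Smtn (203 and 85.6) and Myh11 (128 and 52.6) were dimmer. Myocd (89.9 and 78.1), Lmod1 (72.4 and 6.1) and Des (16.8 and 17.2) were the dimmest. The list summed to 5066.1 to 5692.1 in static and 4037.2 to 4141.1 in sheared arrays. Under shear 5 of the 8 fell, against 30.1% of all tested genes. Markers of other cell types rich in caveolae were mostly at or near the floor. For endothelium 5 of 8 were below the filter, among them Pecam1 (3.73 and 3.47), Kdr (4.33 and 2.00) and Vwf (3.37 and 2.17). Tek (15.8 and 13.9) and Esam (20.3 and 23.1) were dim and did not pass. Egfl7 was brighter and fell (110.5 to 79.4, change -0.40, adjusted p = 0.020), though its second probe set did not pass (-0.10). The endothelial list summed to 145.7 to 182.2 in static and 113.4 to 143.3 in sheared arrays, mostly Egfl7. For adipocytes 5 of 5 were below the filter, summed 6.2 to 16.9 and 6.1 to 9.8. The leukocyte list summed to 184.7 to 245.7 and 128.3 to 170.1, mostly Cd14, which fell (-0.68, adjusted p = 0.00096), while Cd68 rose at a low signal (10.1 to 25.8, change 0.70, adjusted p = 0.0037) and Ptprc was at 1.43 and 1.87. Fibroblast-type genes were bright in both groups (summed 5271.2 to 7692.6 and 4312.5 to 7288.7), with Pdgfra, Col14a1 and Scara5 fallen and Dcn and Dpt risen. The 3′ to 5′ log2 ratio of the beta-actin control was higher in sheared cells, 0.393 ± 0.0281 against 0.255 ± 0.036 (SD, n = 3, exact permutation p = 0.1, the smallest possible). That of Gapdh was 0.156 ± 0.00621 in sheared and 0.166 ± 0.00969 in static cells (exact permutation p = 0.3). The part of these marker changes and of the beta-actin ratio in the fall of the coat genes was not tested.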

How the data were processed

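Affymetrix rat arrays were hybridised with RNA from 6 cultures. MAS5 is the tool that the submitters' processing notes name, without a version. The deposited intensity values are linear, 1 value per probe set, already scaled to a trimmed mean of 100.04 on every array; the number of arrays limits the precision. The annotation named 1 gene for 20826 of 31042 probe sets, 436 had several and 9780 none, and a gene table of assembly GRCr8, matched by gene identifier to 20758, changed 0 symbols. A gene's brightest probe set stood for it in counts by gene.

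Because the values held exact zeros, 16 was added before log2, which makes changes of dim genes look smaller than they are. Probe sets in the lowest 30% by mean, under 4.50 on the log2 scale, were not tested. Sheared and static arrays were compared in limma 3.58.1 (R 4.3.3, lmFit and eBayes with an intensity trend), with the pair as a fixed term. Tests are two-sided, Benjamini-Hochberg adjusted over 21729 probe sets, threshold 0.05. The labels give the pairing. Partners deviated together only weakly (correlations of their deviations from group means 0.071, 0.065 and 0.063). The lowest correlation was 0.987 among static and 0.980 among sheared arrays, and the highest between groups was 0.906. The fit was also run on simulated data with known changes in few probe sets and no pair effect. That run checked the code and not the calls made here. Figures used matplotlib 3.10.9.

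The members and the gene lists were chosen with earlier results of these data known. Named genes were all probe sets of the coat genes, all caveola partners, up to 4 passing genes of each other list by smallest p, and the 3 nearest profiles. A few further list members are named after their values were seen: Cltc, Cltb, Nos3, Srf, Mrtfa, Myocd, Eps15, Abca1, AP-2 subunits and the cell type markers.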

Additional observations from a re-analysis of the deposited data

How the results depend on the processing

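All 10 coat probe sets kept their direction and stayed past the threshold in each of 13 alternatives: quantile normalization, median centring, the replicate block left out or made random, pseudocounts of 1 and 64, no filter and a 50% filter, eBayes without trend or with robust estimation, and each pair left out in turn. The highest adjusted p among these was 0.0056. Without the replicate block the 10 were again called as fallen, with changes from -3.28 to -0.67, and the counts over all probe sets were 6198 fallen and 5232 risen, against 6188 and 5283 with it; the block changed no call of a coat probe set, and among the genes named from the related lists that of Mrtfa alone. Fits with a pair left out rest on 2 pairs. The median of all probe sets moved from -0.067 to 0.021 after quantile normalization and 0.082 after median centring, and risen probe sets from 46.1% of the calls to 52.4% and 59.1%. With each pair left out, 4565 to 7190 probe sets fell and 3876 to 5819 rose. Among the related lists, the risen caveola partners were 1 without pair 3, where Pacsin3 was lost, and the risen transcription regulators were 4 after median centring and 4 without pair 1, where Srf and Mrtfa were gained. Averaging a gene's probe sets turned Eps15 from 0.09 (not passing) to a fall of -0.81 and Abca1 from -0.13 to -1.09. Signals near the floor, such as those of 2 Cav2 probe sets under shear, limit the size of a fold more than its direction. Comparisons of gene pairs under alternatives and with other probe sets were added after seeing the data.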
